A study of Mus musculus with 15 samples.

Results

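The 38 genes described here encode the machinery of mitosis, from the kinase CDK1 and its cyclins to the spindle checkpoint, the kinetochore, the spindle, the cytokinetic ring and the condensed chromosome. They were taken by gene symbol, but with earlier results of these data known. Their shares beside all tested genes are therefore descriptions. All 38 were found among the 26844 genes of the deposited table, and all 38 were among the 14299 genes tested, which reached 10 or more normalised counts in at least 3 libraries. The libraries came from the distal jejunum of C57BL/6 males that were 13 to 15 weeks old. Wild-type (WT) mice were set against mice with a global knockout of Aster-B and Aster-C (KO), a pair of proteins that move cholesterol out of the plasma membrane and into the endoplasmic reticulum. The WT control group (n = 4) and the KO control group (n = 3) ate a diet with 0.08% cholesterol. The WT ezetimibe group (n = 4) and the KO ezetimibe group (n = 4) ate the same diet with 0.01% ezetimibe added, which inhibits the intestinal cholesterol importer NPC1L1, so that all 4 groups share the low level of dietary cholesterol. The knockout is not limited to any cell type, and the RNA is that of whole tissue. The study asked how Aster proteins and NPC1L1 cooperate in taking up dietary cholesterol.

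Whole reads recovered from the normalised counts came to between 13855034 and 19307079 per library. The targeted genes were lower in the KO libraries of each diet. Gramd1c, which encodes Aster-C, ranged from 1059 to 1845 normalised counts in WT control, from 114.8 to 194 in KO control, and lay between 1102 and 1394 in WT ezetimibe and between 71.8 and 155.5 in KO ezetimibe. Gramd1b, which encodes Aster-B, lay between 2274 and 4046 in WT control and between 962 and 1247 in KO control, and between 2859 and 3697 in WT ezetimibe and between 1744 and 2086 in KO ezetimibe. All 12 enterocyte markers were present in every library, with a summed level between 828000 and 1249000 normalised counts.

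In the small intestine most cell division takes place in the crypts, where stem cells and their transit-amplifying progeny divide, while the enterocytes of the villus no longer do. Lymphocytes in the gut wall also divide. Mitosis genes are transcribed late in the cell cycle, in G2 and M phase, by complexes that hold B-MYB and FOXM1, and in resting cells they are held down by the DREAM complex. Both kinds of complex reach their targets through a promoter element known as the cell cycle genes homology region (CHR), often with CCAAT boxes nearby that bind NF-Y.

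The promoters of the 6 genes that were called lower in KO on the control diet are shown here, with that of the cyclin Ccnb2 as an example of the layout with CHR and CCAAT elements. They are RefSeq sequences of 300 bases on GRCm38.p6, from 250 before to 50 after the start site, written 5′ to 3′ along the gene's own strand. Capitals mark the CHR letters TTTGAA or TTCGAA and the CCAAT box, read on either strand (TTCAAA and ATTGG are the reverse forms).
Mki67: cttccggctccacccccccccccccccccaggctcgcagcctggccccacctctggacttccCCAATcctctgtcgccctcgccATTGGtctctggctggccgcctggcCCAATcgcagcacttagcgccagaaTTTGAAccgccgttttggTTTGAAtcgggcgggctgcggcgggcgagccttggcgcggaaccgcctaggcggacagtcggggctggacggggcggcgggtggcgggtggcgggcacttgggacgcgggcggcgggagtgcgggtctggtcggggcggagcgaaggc
Bub1: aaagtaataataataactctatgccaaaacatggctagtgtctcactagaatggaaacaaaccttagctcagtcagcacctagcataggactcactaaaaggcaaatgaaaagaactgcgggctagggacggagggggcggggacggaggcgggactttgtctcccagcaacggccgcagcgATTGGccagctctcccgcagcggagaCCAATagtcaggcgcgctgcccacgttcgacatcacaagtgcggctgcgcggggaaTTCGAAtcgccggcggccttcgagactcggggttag
Knl1: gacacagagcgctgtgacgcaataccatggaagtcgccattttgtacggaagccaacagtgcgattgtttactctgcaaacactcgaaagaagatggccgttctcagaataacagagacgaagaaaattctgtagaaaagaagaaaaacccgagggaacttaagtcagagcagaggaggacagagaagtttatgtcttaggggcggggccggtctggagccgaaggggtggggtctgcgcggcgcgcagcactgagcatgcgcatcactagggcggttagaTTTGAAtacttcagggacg
Aspm: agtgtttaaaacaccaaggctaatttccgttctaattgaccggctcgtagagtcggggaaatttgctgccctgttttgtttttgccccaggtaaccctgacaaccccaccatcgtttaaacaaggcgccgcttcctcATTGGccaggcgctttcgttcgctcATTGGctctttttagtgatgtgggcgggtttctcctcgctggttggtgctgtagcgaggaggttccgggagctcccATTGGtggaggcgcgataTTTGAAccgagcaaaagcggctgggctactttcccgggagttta
Anln: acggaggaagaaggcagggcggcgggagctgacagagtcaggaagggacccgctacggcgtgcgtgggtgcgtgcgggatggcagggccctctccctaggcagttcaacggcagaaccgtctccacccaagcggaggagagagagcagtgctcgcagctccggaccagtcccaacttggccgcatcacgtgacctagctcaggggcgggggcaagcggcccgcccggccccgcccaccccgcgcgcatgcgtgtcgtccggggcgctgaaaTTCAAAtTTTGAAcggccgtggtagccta
Plk4: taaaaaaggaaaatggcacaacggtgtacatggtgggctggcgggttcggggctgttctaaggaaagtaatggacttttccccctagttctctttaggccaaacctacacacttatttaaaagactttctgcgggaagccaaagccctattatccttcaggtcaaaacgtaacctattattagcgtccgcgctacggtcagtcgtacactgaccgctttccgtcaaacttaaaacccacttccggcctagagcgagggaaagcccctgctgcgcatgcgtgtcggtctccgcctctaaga
Ccnb2: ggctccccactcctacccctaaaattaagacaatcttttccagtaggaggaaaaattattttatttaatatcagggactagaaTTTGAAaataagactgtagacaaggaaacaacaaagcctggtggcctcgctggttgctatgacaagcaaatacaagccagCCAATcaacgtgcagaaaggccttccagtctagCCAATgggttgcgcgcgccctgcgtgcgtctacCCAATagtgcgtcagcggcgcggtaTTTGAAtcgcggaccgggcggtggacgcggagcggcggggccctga
Their positions are chr7:135716330-135716629, minus strand for Mki67, chr2:127831810-127832109, minus strand for Bub1, chr2:119046869-119047168, plus strand for Knl1, chr1:139454523-139454822, plus strand for Aspm, chr9:22389157-22389456, minus strand for Anln, chr3:40799701-40800000, plus strand for Plk4 and chr9:70421505-70421804, minus strand for Ccnb2. The Mki67 window held 2 CHR matches and 3 CCAAT boxes, the Aspm window 1 and 3, and the Ccnb2 window 2 and 3. The Bub1 window held 1 CHR match, the TTCGAA form, and 2 CCAAT boxes. The Knl1 window held 1 CHR match, beginning 32 bases after the start site, and no CCAAT box. The Anln window held 2 CHR matches back to back, beginning 22 and 29 bases after the start site, and no CCAAT box. The Plk4 window held none of these letters, which says nothing of any factor there. It ended before the gene start in the GENCODE M21 annotation, at chr3:40800019, so the 2 sources place the start differently.

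RefSeq windows were found for 31 of the 38 genes, 33 windows in all. A CHR match lay in 24 of the 33 (72.7%), against 14.4% of the 13264 windows of tested genes and 19.2% of all 32851 windows. A CCAAT box lay in 23 of the 33 (69.7%), against 37.5% of the windows of tested genes and 37.4% of all windows. Both lay in 21 of the 33 (63.6%), against 5.84% and 7.53%. The letters GGCGGGAA, one form of the E2F site of genes used in S phase, lay in 0 of the 33 windows, in 3.82% of those of tested genes and 2.19% of all, and in 19.0% of the 42 windows of DNA replication and G1/S genes. The CHR letters lay in 23.8% of those 42 windows. Overlapping matches were each counted, and a match is a description of the letters, not a bound site.

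Levels are compared between genes per kilobase of exon, in normalised counts. In WT control Smc4, a core subunit of condensin, had the highest level of the 38 at 138 per kb. Mki67, the proliferation antigen that coats mitotic chromosomes, followed at 77.8 per kb, Plk1 at 73.1, Top2a at 69.4, Cdc20 at 67.1 and Ccnb2 at 64.5. The lowest were the kinetochore gene Ndc80 at 6.12 per kb and the spindle pole gene Aspm at 4.76. Neighbours in this order differed by less than the larger of their SDs, except Smc4 from Mki67 and, further down, Prc1 at 14.2 from Anln at 8.75. The coefficient of variation among the 4 WT control libraries ran from 11.1% for Plk4 to 59.5% for Cenpe, with a median over the 38 genes of 43.5%. The median was 38.8% in KO control, 18.3% in WT ezetimibe and 21.6% in KO ezetimibe. A measured gene on the other strand overlaps 12 of the 38, among them Mki67, Top2a, Plk1, Cdc20 and Tacc3, and the strand setting of the counting is not given, so some reads of these pairs cannot be told apart.

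On the control diet all 38 mitosis genes had a lower mean log2 level in KO than in WT, where 50.9% of all tested genes did. The median log2 fold change of the 38 was −1.19, against −0.01 over all tested genes, and ran from −1.91 for the checkpoint kinase Bub1 to −0.34 for Smc4. Of the 38, 6 fell past an adjusted p of 0.05 (limma, Benjamini-Hochberg over 14299 genes) and 0 rose, where 0.224% of all tested genes were called lower and 0.147% higher. Those that fell were Plk4, Bub1, Knl1, Aspm, Anln and Mki67. In 20 of the 38 every KO control library was below every WT control library, which held for 5.57% of all tested genes. At an unadjusted p under 0.05, 36 were lower (7.86% of all tested genes), and the remaining ones were the kinases Aurka and Ttk. In whole tissue, fewer cells of a type and less RNA per cell cannot be told apart.

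The count of 6 depended on the libraries and on the tool. Leaving out WT control replicate 2, 3 or 4, KO control replicate 1 or 3, or KO ezetimibe replicate 2 left 0 of the 38 called by limma, while leaving out WT control replicate 1 gave 15. Without any 1 of the 4 WT ezetimibe libraries only Plk4 was called, without KO ezetimibe replicate 1 there were 2 calls, and without KO ezetimibe replicate 4 there were 3. In each of these 15 fits all 38 genes stayed below 0, with a median between −1.43 and −0.95. DESeq2 on the recovered reads called 23 of the 38 lower (1.71% of all tested genes), edgeR 1 (0.0629%) and limma-voom 1 (0.049%), which was Plk4 with both. The authors' deposited table lists 22 of the 38 as lower and 0 as higher on this diet, where it lists 0.857% of all genes in the table as lower. Its adjusted p for the 6 genes called by limma runs from 0.000124 for Plk4 to 0.000779 for Anln.

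Plk4, the kinase that starts centriole duplication, had the steadiest difference. It stood at 114, 122, 122 and 146 normalised counts in WT control replicates 1 to 4 and at 56, 67 and 61.7 in KO control replicates 1 to 3. All 3 KO libraries were below all 4 WT libraries, and the spread within each group was small beside the gap. The mean was 126 ± 13.9 (SD, n = 4) in WT and fell in KO to 61.6 ± 5.48 (SD, n = 3). The log2 fold change was −1.01 ± 0.17 (SE), or 2.02-fold (limma adjusted p = 0.0309). It was called in 9 of the 15 fits that left out 1 library, the other called genes in 1 to 4.

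Bub1, a checkpoint kinase that sits at kinetochores until chromosomes attach, had the largest difference of the 38. Its values were 28.6, 75.4, 61.8 and 102 normalised counts in WT control and 8.93, 19 and 21.7 in KO control, in replicate order. WT control replicate 1 was by far the lowest of its group, yet still above the highest KO library. The log2 fold change was −1.91 ± 0.38 (SE), or 3.75-fold lower (limma adjusted p = 0.047).

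Knl1, the kinetochore scaffold on which BUB1 docks, had 50.6, 79.9, 55.6 and 109 normalised counts in WT control and 16.2, 26.2 and 29.2 in KO control. The groups were apart, with WT control replicate 4 at more than any other library and KO control replicate 1 at the bottom. Knl1 fell by 1.56 ± 0.28 (log2, SE), or 2.95-fold (limma adjusted p = 0.0424).

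Aspm keeps microtubules focused at the spindle poles. It was read at 32.5, 73.6, 38.1 and 76.4 normalised counts in WT control and at 11.4, 19 and 16.2 in KO control. WT control replicates 1 and 3 formed a lower pair and replicates 2 and 4 a higher one, and every KO library was below both pairs. The log2 fold change was −1.69 ± 0.33 (SE), with a limma adjusted p of 0.047.

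Anln encodes anillin, which ties the contractile ring to the cell membrane in cytokinesis. Its values were 44.9, 112, 60.8 and 99.9 in WT control and 15.4, 31.7 and 33.6 in KO control. The highest KO library was below the lowest WT library, and KO control replicate 1 was lower than the other KO libraries. Anln fell by 1.51 ± 0.30 (log2, SE, limma adjusted p = 0.047). An unnamed gene model on the same strand overlaps it, and reads of the pair may have been shared.

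Mki67 was the most abundant of the called genes, at 483, 924, 546 and 1177 normalised counts in WT control and 167, 341 and 304 in KO control. The KO libraries were all below the WT libraries, although the WT values spanned more than the distance between the 2 group means. The WT mean was 782 ± 327 (SD, n = 4) and the KO mean 271 ± 91.7 (SD, n = 3). The log2 fold change was −1.50 ± 0.29 (SE), or 2.82-fold lower, with a limma adjusted p of 0.047.

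**Figure D1:**
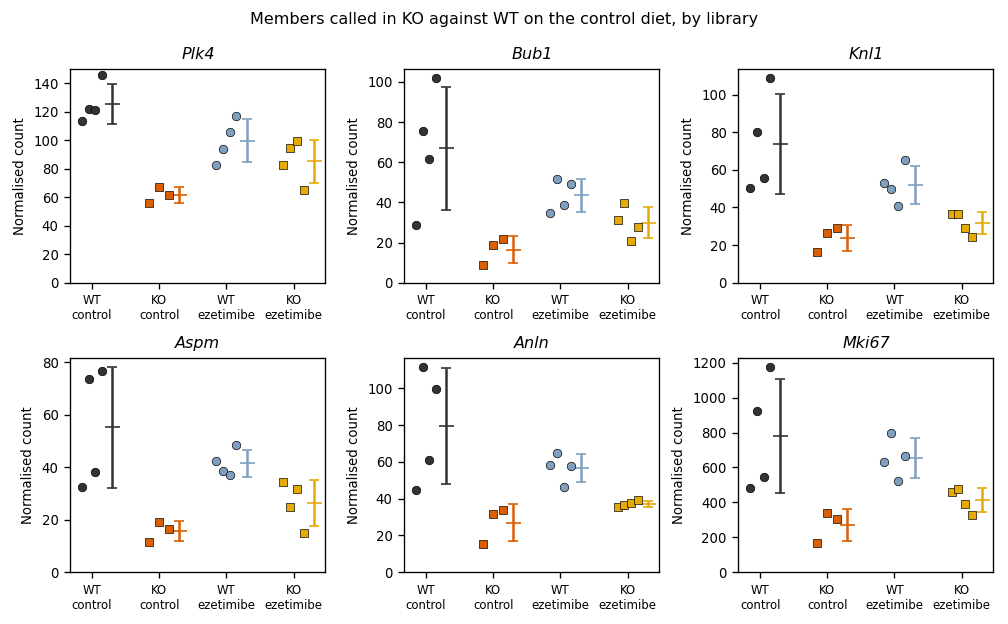
Normalised count of the 6 genes called lower in KO on the control diet, for every library (points, replicates in order from left to right) in the 4 groups, with the mean and SD beside them (bars). In each panel the 3 KO control points lie below the 4 WT control points, while the ezetimibe groups are nearer to each other, as with Plk4 at 99.7 ± 14.9 in WT ezetimibe and 85.3 ± 15.3 in KO ezetimibe.

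CDK1 and its cyclins, which start mitosis, stood at a median of −1.30 (log2, KO against WT, control diet). Of these 4, 0 were called by limma. All 4 were lower at an unadjusted p under 0.05 (36 of the 38, and 7.86% of all tested genes). DESeq2 called 3 lower (23 of the 38, and 1.71% of all tested genes). Cdk1 itself was at 72.6, 157, 88.6 and 184 normalised counts in WT control and 30.8, 92.3 and 36.8 in KO control. KO control replicate 2 overlapped the WT range, and the log2 difference was −1.29 ± 0.38 (SE, limma adjusted p = 0.124). Ccna2, the cyclin of S phase and G2, was at 113, 231, 132 and 306 in WT control and 44.6, 109 and 73.7 in KO control. Its groups did not overlap (−1.33 ± 0.34, log2 difference with SE, limma adjusted p = 0.087). The B-type cyclins Ccnb1 and Ccnb2, which carry CDK1 into mitosis, were at log2 differences of −1.31 and −0.85, and both have a named pseudogene in the table that could have drawn some of their reads.

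Of the mitotic kinases other than Plk4, Plk1, which acts from mitotic entry to cytokinesis, was at 121, 177, 129 and 216 normalised counts in WT control and 88.5, 91.4 and 103 in KO control. The groups did not overlap, and the KO libraries were close together (−0.73 ± 0.18, log2 difference with SE, limma adjusted p = 0.0758). Aurka, the kinase of centrosomes and spindle poles, had the smallest difference of these kinases at −0.56 ± 0.27 (log2, SE), and Melk, a kinase that rises in dividing cells, stood at −1.10 ± 0.47. Both overlapped between the groups.

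In the spindle checkpoint, Bub1b, which encodes the inhibitor BUBR1, had 66.8, 133, 63.9 and 176 normalised counts in WT control and 29.2, 61.5 and 43.3 in KO control. The groups were just apart, with the highest KO library at 61.5 and the lowest WT library at 63.9. The log2 difference was −1.21 ± 0.35 (SE, limma adjusted p = 0.121). Cdc20, which activates the anaphase-promoting complex once the checkpoint is met, was at 77.3, 183, 56.7 and 184 in WT control and 38.1, 96.8 and 45.5 in KO control. KO control replicate 2 was above WT control replicates 1 and 3, and the log2 difference of −0.99 ± 0.41 (SE) was far from passing (limma adjusted p = 0.278). Ttk, the kinase at the head of the checkpoint, was at −1.03 ± 0.49 (log2, SE).

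The chromosomal passenger complex corrects wrong attachments and later directs cytokinesis. Its scaffold Incenp was at 90.7, 199, 110.2 and 262 normalised counts in WT control and 63.3, 104 and 73.7 in KO control, with KO control replicate 2 above WT control replicate 1 (−0.93 ± 0.31, log2 difference with SE). Birc5, which encodes survivin, was at 134, 209.8, 118 and 293 in WT control and 90.9, 140.3 and 121 in KO control, also with overlap (−0.61 ± 0.26). The kinase of the complex, Aurkb, did not overlap between the groups and was at −1.54 ± 0.48 (log2, SE). None of the 3 was called by limma.

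The kinetochore genes were among the lowest in KO, with a median log2 fold change of −1.37 over 5 genes, 1 called (Knl1), all 5 at an unadjusted p under 0.05 and 3 of 5 without overlap. Cenpf, a large protein of the outer kinetochore, was at 66.8, 122, 86.5 and 205 normalised counts in WT control and 18.7, 48 and 44.4 in KO control. KO control replicate 1 was lowest by a wide margin, and the groups were apart (−1.65 ± 0.40, log2 difference with SE, limma adjusted p = 0.0758). Cenpe, the kinesin that moves chromosomes to the spindle equator, was at 63, 147, 83.5 and 239 in WT control and 40.6, 76.9 and 61.7 in KO control, with overlap (−1.0 ± 0.36). Ndc80 and Nuf2, partners in the complex that grips microtubules, were at −1.37 and −1.35 (log2).

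Among the spindle motors and microtubule-binding proteins, Kif11, the kinesin that pushes the poles apart, was at 103, 214, 123 and 276 normalised counts in WT control and 56, 74.2 and 63.9 in KO control. The groups were far apart, and its log2 difference of −1.35 ± 0.28 (SE) lay just outside the threshold (limma adjusted p = 0.0529). Tacc3, which strengthens the fibres at kinetochores, was at 75.4, 141, 85.5 and 189.5 in WT control and 41.4, 102 and 43.3 in KO control. KO control replicate 2 was above the 2 lower WT libraries (−1.0 ± 0.34, log2 difference with SE). Tpx2, which activates Aurora A on the spindle, and the microtubule binders Nusap1 and Ckap2l were at −1.28, −1.36 and −1.13.

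The central spindle genes apart from Anln showed smaller differences. Kif23, the motor of the centralspindlin complex, was at 135, 213, 106 and 240.5 normalised counts in WT control and 97.4, 88.7 and 96.4 in KO control, with the KO libraries close together and below all WT libraries (−0.80 ± 0.27, log2 difference with SE). Ect2, which switches on the GTPase RhoA at the division plane, was at 124, 159.8, 96.8 and 199 in WT control and 84.4, 70.6 and 71.5 in KO control, also without overlap (−0.89 ± 0.20, limma adjusted p = 0.0636). Prc1, which bundles the midzone microtubules, was at −0.73 (log2) and Kif20a, a midzone kinesin, at −1.15, both with overlap.

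Of the chromosome genes, Top2a, the topoisomerase that untangles sister chromatids, was at −1.44 ± 0.32 (log2, SE, limma adjusted p = 0.0636), without overlap between the groups. The condensin subunits were spread widely. Ncapg and Ncaph, found in condensin I only, were at −1.41 and −1.27, whereas the core subunits Smc2 and Smc4 were at −0.65 and −0.34. Smc4 was at 563, 765, 693 and 846 normalised counts in WT control and 466, 639 and 587 in KO control, with overlap (−0.34 ± 0.14, SE, limma adjusted p = 0.276). Esco2, which acetylates cohesin in S phase, was at −1.17 ± 0.45. Over the 38 genes the log2 difference was less negative for genes with a higher mean level (Spearman rho 0.44 across genes, which share the same libraries).

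**Figure D2:**
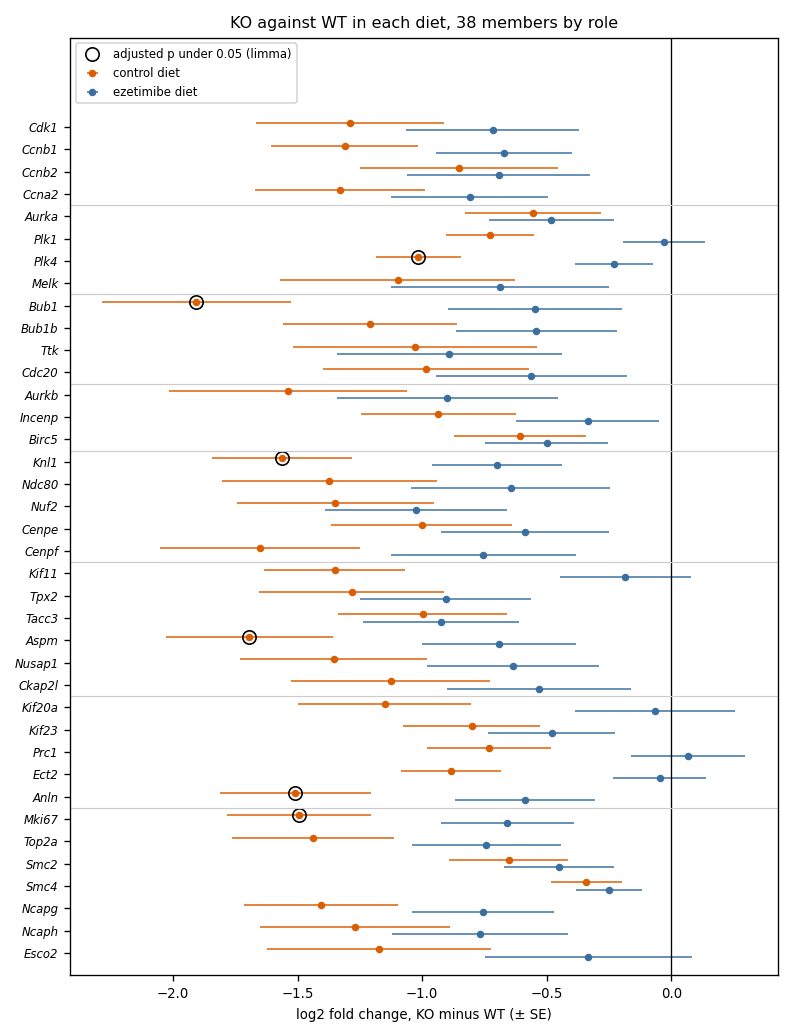
Log2 fold change of KO against WT with its SE for the 38 genes, grouped by role, on the control diet (orange) and on ezetimibe (blue); circles mark an adjusted p under 0.05 by limma. Every control-diet point lies left of 0 and left of its ezetimibe point, with medians of −1.19 and −0.61.

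On ezetimibe 37 of the 38 genes had a lower mean in KO than in WT (50.3% of all tested genes), with a median log2 fold change of −0.61 against −0.0018 over all tested genes. No gene of the set was called by limma or DESeq2 (0 of 38), where limma called 0.00699% of all tested genes lower and 0.0% higher and DESeq2 0.189% and 0.357%, and the authors' deposited table lists 0 of the 38 (0.0931% of all genes in the table as lower). At an unadjusted p under 0.05, 11 of the 38 were lower by limma (8.3% of all tested genes). In 14 every KO ezetimibe library was below every WT ezetimibe library (4.84% of all tested genes). The largest differences were −1.02 ± 0.37 for Nuf2, −0.92 ± 0.31 for Tacc3 and −0.91 ± 0.34 for Tpx2 (log2, SE), and the single gene on the other side was Prc1 at 0.07 ± 0.23.

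Mki67 was at 628, 799, 522 and 668 normalised counts in WT ezetimibe and 456, 478, 390.0 and 329 in KO ezetimibe, without overlap (−0.66 ± 0.27, log2 difference with SE, limma adjusted p = 0.27). Knl1 was at 52.8, 49.8, 40.6 and 65 in WT ezetimibe and 36.4, 36.5, 29.2 and 24.5 in KO ezetimibe, again without overlap (−0.70 ± 0.26). The groups were thus apart for both genes, by a smaller distance than on the control diet.

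Anln was at 58.1, 64.8, 46.2 and 57.6 in WT ezetimibe and 35.3, 36.5, 37.4 and 39.4 in KO ezetimibe, where the 4 KO libraries lay close together under the WT range (−0.59 ± 0.28). Aspm was at 42.2, 38.5, 36.8 and 48.3 in WT ezetimibe and 34.3, 24.7, 31.5 and 14.9 in KO ezetimibe, with KO ezetimibe replicate 4 well below the rest (−0.69 ± 0.31). For both genes the genotypes did not overlap.

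Bub1 was at 34.8, 51.6, 38.7 and 49.2 in WT ezetimibe and 31.1, 39.7, 21 and 27.7 in KO ezetimibe, and Plk4 at 82.4, 93.9, 106 and 117 and 82.5, 94.3, 99.2 and 65. Both overlapped between the genotypes, with log2 differences of −0.55 ± 0.35 and −0.23 ± 0.16 (SE). The genes with the largest and the steadiest difference on the control diet were not those with the largest on ezetimibe.

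The cyclin-dependent kinase Cdk1 was at 95, 106, 77.4 and 109.6 normalised counts in WT ezetimibe and 84.6, 69.7, 42 and 45.8 in KO ezetimibe (−0.72 ± 0.35, log2 difference with SE), and its cyclin Ccna2 at 132, 188, 115 and 158 and 105, 101, 61.9 and 71.4 (−0.81 ± 0.32). Ccna2 did not overlap between the genotypes, and Cdk1 did through KO ezetimibe replicate 1. Cenpf was at 72.9, 105, 70.7 and 87.3 in WT ezetimibe and 68.5, 65.4, 49 and 25.6 in KO ezetimibe, without overlap (−0.75 ± 0.37). Tacc3 was at 124, 188, 98.1 and 132 and 76, 74, 56 and 71.4, also without overlap. In both genes WT ezetimibe replicate 2 was the highest of the 8 libraries.

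The checkpoint genes Bub1b and Cdc20 overlapped between the genotypes. Bub1b was at 70.8, 91.1, 70.7 and 78.9 in WT ezetimibe and 78.2, 60.0, 36.2 and 45.8 in KO ezetimibe, and Cdc20 at 107, 114, 53.8 and 107 and 68.5, 77.2, 49 and 55.4. WT ezetimibe replicate 3 had less than any other WT ezetimibe library of Cdc20 and was within the KO range. Birc5, at 153, 184, 133 and 144 in WT ezetimibe and 132, 105, 116 and 83.1 in KO ezetimibe, did not overlap (−0.50 ± 0.25, log2 difference with SE). Incenp, at 132, 159, 101 and 123 and 106, 124, 105 and 73.5, did. Cenpe, at 82.4, 118, 85.8 and 130.0 and 91, 55.8, 68.9 and 59.6, overlapped through KO ezetimibe replicate 1.

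A few genes had a log2 difference close to 0 between the genotypes on ezetimibe. Plk1 was at 127, 151, 118 and 128 normalised counts in WT ezetimibe and 132, 136, 119 and 125 in KO ezetimibe (−0.03 ± 0.16, log2 difference with SE). Ect2 was at 140.5, 106, 107 and 128 and 129, 120.1, 112 and 103 (−0.05 ± 0.19), and Kif11 at 99.3, 167, 117 and 117 and 132, 113, 87.6 and 104 (−0.18 ± 0.26). In all 3 the genotypes overlapped, and for Plk1 and Ect2 the side on which the difference lay turned with the scaling or with a library left out. Kif20a was at −0.07 ± 0.32. Kif23, at 145, 150.3, 91.5 and 180.1 in WT ezetimibe and 119.9, 110.4, 71.2 and 99.1 in KO ezetimibe, was further from 0 (−0.48 ± 0.25). Smc4, at 716, 812, 712 and 707 and 745, 586, 565 and 588, overlapped only through KO ezetimibe replicate 1 (−0.25 ± 0.13).

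The genotype comparisons of the 2 diets share no library. Across the 38 genes their log2 fold changes had a Pearson r of 0.48 and a Spearman rho of 0.51, given as a description since the genes of a library are not independent. The difference of the differences, a genotype by diet interaction, was above 0 for all 38 (50.9% of all tested genes), so that KO libraries were less far below WT libraries on ezetimibe, with a median of 0.64. It was called for 0 of the 38 by limma and DESeq2 (called above 0 for 0.0% and 0.035% of all tested genes). Of the 38, 11 were above 0 at an unadjusted p under 0.05 by limma (3.87% of all tested genes). The smallest unadjusted p among them belonged to Plk4 (0.79 ± 0.23, log2, SE, limma adjusted p = 0.681), and the largest value to Bub1 (1.36 ± 0.51). The median was 0.37 without WT control replicate 4 and 0.31 without KO control replicate 1, when 5 and 7 of the 38 were below 0. The test therefore does not show that the genotype difference depended on the diet for any of these genes.

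Within a genotype, the effect of ezetimibe was read from the libraries on the 2 diets. In WT, ezetimibe libraries had a lower mean than control libraries for 35 of the 38 (52.3% of all tested genes), with a median log2 fold change of −0.26. No gene was called by limma or DESeq2 (0 of 38), where limma called 0.014% of all tested genes lower and 0.203% higher and DESeq2 0.0769% and 0.573%. At an unadjusted p under 0.05 there was 1 (Plk4, −0.34 ± 0.16), where 1.94% of all tested genes were lower. In none did the groups separate (0 of 38, against 1.21% of all tested genes lower and 2.26% higher). Without WT control replicate 4 the median was −0.05 and 22 of the 38 were below 0. Without replicate 1 or 3 of the same group it was −0.43 and −0.40, without replicate 2 it was −0.14, and without WT ezetimibe replicate 3 it was −0.17.

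In KO, ezetimibe libraries had a higher mean for 35 of the 38 (50.7% of all tested genes), with a median of 0.36. Again 0 were called by limma or DESeq2, where limma called 0.294% of all tested genes lower and 0.434% higher and DESeq2 3.8% and 4.28%. Of the 38, 7 were higher at an unadjusted p under 0.05 by limma, where 11.8% of all tested genes were. In 4 genes (Ect2, Plk1, Anln and Kif11) every KO ezetimibe library was above every KO control library, which held for 8.64% of all tested genes, so these shares were near those of all genes. The largest values were 0.87 ± 0.38 for Bub1, 0.83 ± 0.35 for Kif20a and 0.74 ± 0.28 for Kif11. Without KO control replicate 1 the median was 0.06 and 15 of the 38 were below 0, and without KO control replicate 2 it was 0.57 and none was.

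The libraries of a group differed in the mean level of the 38 genes. The mean of their log2(normalised count + 1) was 6.15, 7.06, 6.27 and 7.37 in WT control replicates 1 to 4 and 5.07, 5.95 and 5.65 in KO control replicates 1 to 3. It was 6.43, 6.66, 6.20 and 6.58 in WT ezetimibe and 6.17, 6.12, 5.72 and 5.63 in KO ezetimibe. WT control split into a lower pair (1 and 3) and a higher pair (2 and 4), and no WT ezetimibe library reached the higher pair. Within each diet the KO libraries were all below the WT libraries, though on ezetimibe the nearest were only 6.17 and 6.20.

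WT control replicate 4 was the highest of all 15 libraries for 35 of the 38 genes, and WT control replicate 2 for the other 3. KO control replicate 1 was the lowest of all 15 for 30 genes, KO ezetimibe replicate 3 for 3, KO control replicate 2 and KO ezetimibe replicate 4 for 2 each, and KO control replicate 3 for 1. On ezetimibe, WT replicate 3 was the lowest WT library for 28 genes and KO replicate 1 the highest KO library for 22. Not every gene followed the mean: Prc1, at 101, 69.5, 122 and 92.8 normalised counts in WT ezetimibe replicates 1 to 4, was lowest in replicate 2, where the mean over the 38 genes was highest, and highest in replicate 3, where that mean was lowest. Prc1 and Kif20a were singled out here after their values were seen, and Kif20a was at 27.5, 25.4, 37.7 and 29.7 and also highest in replicate 3. Without WT control replicate 4 and KO ezetimibe replicate 3 together, the ends of the main axis of variation over all genes, the control-diet median was −0.96 and 0 of the 38 were called by limma, an alternative chosen after seeing the data.

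**Figure D3:**
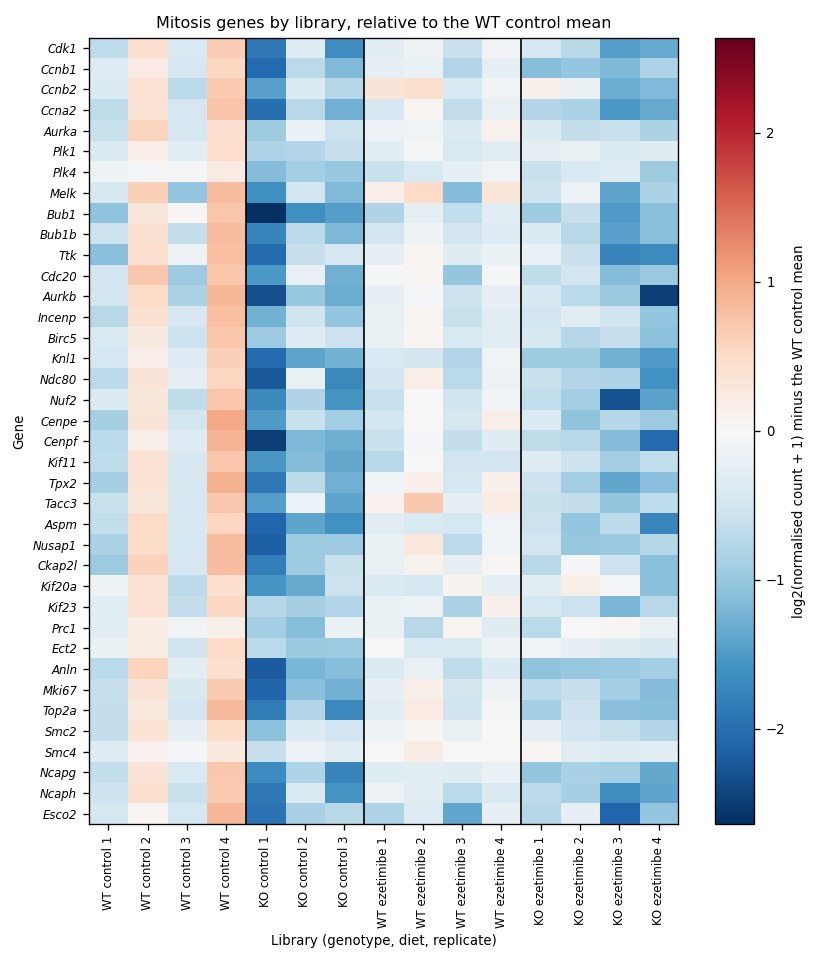
Level of each of the 38 genes (rows, by role) in each of the 15 libraries (columns, by group), as log2(normalised count + 1) minus the mean of the WT control libraries. For most genes the colour follows the column: WT control replicates 2 and 4 are red for nearly every gene, and KO control replicate 1 is the darkest blue for most genes (the lowest library for 30). The WT ezetimibe columns are paler than that column. KO ezetimibe replicates 3 and 4, at a mean log2 level of 5.72 and 5.63, are near KO control replicates 2 and 3 at 5.95 and 5.65.

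Other genes of the cell cycle were taken from lists made for this comparison. Of 84 other mitosis genes (further kinesins, kinetochore, condensin and checkpoint genes), 81 had a lower mean in KO on the control diet, with a median log2 fold change of −0.98. Of these 0 were called by limma. DESeq2 called 21 lower (1.71% of all tested genes), and 54 were lower at an unadjusted p under 0.05 by limma (7.86%). The authors' deposited table lists 20 of the 84 as lower and 0 as higher. Of 45 DNA replication and G1/S genes 44 were tested, 40 had a lower mean, and the median was −0.68, with 0 called by limma, 9 called lower by DESeq2 and 23 at an unadjusted p under 0.05. Pcna, the replication clamp, was at 1069 ± 131.4 normalised counts (SD, n = 4) in WT control and 1118 ± 180.8 (SD, n = 3) in KO control and was not called (limma).

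In each library the mean log2 level of the 38 mitosis genes can be set against that of the replication genes. The mitosis mean minus the replication mean was −0.24, 0.02, −0.41 and 0.03 in WT control replicates 1 to 4 and −0.87, −0.70 and −0.39 in KO control replicates 1 to 3. The KO control values overlapped the WT control values through KO control replicate 3. On ezetimibe it was −0.16, −0.38, −0.25 and −0.21 in WT and −0.25, −0.29, −0.49 and −0.37 in KO, with overlap.

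The 15 regulators of G2/M transcription (subunits of MuvB and DREAM with their E2F, DP and MYB partners, and Foxm1) had a median log2 fold change of −0.24 for KO against WT on this diet, with 11 below 0, 0 called by limma and 2 called lower by DESeq2. Foxm1, chosen here after its values were seen, was the lowest of them at −1.64 (log2), and the authors' deposited table lists it at −1.71 (adjusted p = 0.00706). The repressor E2f4, at 658 ± 82.3 normalised counts (SD, n = 4) in WT control and 671 ± 88.5 (SD, n = 3) in KO control, and E2f3, at 619 ± 88.1 and 685 ± 128.7, were close to 0. The 6 tested inhibitors of cyclin-dependent kinases had a median of 0.04 and 0 calls by limma, and Cdkn1a, which encodes p21, was at 5000.0 ± 895 in WT control and 4961 ± 419 in KO control.

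Marker lists of other cells were read beside the mitosis genes. Over all tested genes on the control diet, 7.86% were lower at an unadjusted p under 0.05 (limma). DESeq2 called 1.71% lower, and 5.57% were lower without overlap. All 12 stem cell markers had a lower mean in KO on the control diet (median log2 fold change −0.64, 5 at an unadjusted p under 0.05, 0 called by limma or DESeq2, 0 without overlap), and their summed level ran from 2187 to 4485 normalised counts in WT control and from 1259 to 2276 in KO control. All 8 Paneth cell markers had a lower mean (median −1.68, 8 at an unadjusted p under 0.05, 0 called by limma, 5 called lower by DESeq2, 6 without overlap), and summed to between 19440 and 64990 in WT control and between 10310 and 17170 in KO control. Paneth cells sit at the crypt base and do not divide. None of the stem cell or Paneth cell markers was at 0 in any library, and their part in the result was not tested.

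Lymphocyte markers were lower on average as well. All 12 T and NK cell markers had a lower mean in KO on the control diet (median −0.61, 9 at an unadjusted p under 0.05, 0 called by limma, 4 called lower by DESeq2, 3 without overlap), with a summed level between 4654 and 7717 in WT control and between 3574 and 4779 in KO control, and none at 0 in any library. All 8 B cell markers had a lower mean (median −1.40, 0 at an unadjusted p under 0.05, 0 called by limma or DESeq2), with a summed level between 44.9 and 674 in WT control and between 44.6 and 371 in KO control, so that the B cell signal varied more within the groups than between them. Blk was at 0 in some WT control library and Pax5 in some KO control library. Of 5 tested germinal centre B cell markers 4 had a lower mean (median −0.81, 0 called), and their sums overlapped, at 340 to 418 in WT control and 327 to 431 in KO control, with Gcsam at 0 in some KO control library. The part of lymphocytes in the result was not tested.

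The mean log2 level of the B cell markers was 2.29, 5.58, 4.89 and 6.27 in WT control replicates 1 to 4 and 2.33, 5.29 and 2.35 in KO control replicates 1 to 3. KO control replicate 2 lay within the range of WT control replicates 2 to 4, and KO control replicates 1 and 3 lay near WT control replicate 1. The enterocyte markers, by contrast, had a median log2 fold change near 0, at 0.06, and 5 of 12 were below 0, with 0 called by limma and 1 called higher by DESeq2. Of 9 tested myeloid markers 8 had a higher mean (median 0.34, 0 called by limma or DESeq2).

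On ezetimibe, 9 of the 12 stem cell markers had a lower mean in KO (median −0.57), 8 of 8 Paneth cell markers (median −0.65), 11 of 12 T and NK cell markers (median −0.48, 1 called lower by DESeq2), 8 of 8 B cell markers (median −1.73) and 9 of 9 myeloid markers (median −0.63). All 12 enterocyte markers had a higher mean (median 0.28, 4 at an unadjusted p under 0.05, 1 called higher by DESeq2, 3 without overlap). In each of these 6 lists 0 were called by limma, and their part in the ezetimibe result was not tested.

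The same lists were read between the diets. In KO, all 12 T and NK cell markers had a higher mean with ezetimibe (median 0.53, 8 at an unadjusted p under 0.05, 0 called by limma, 3 called higher by DESeq2), with a summed level between 3574 and 4779 normalised counts in KO control and between 4924 and 6819 in KO ezetimibe. All 9 myeloid markers had a lower mean (median −1.60, 8 at an unadjusted p under 0.05, 4 called lower by DESeq2), and summed to between 766 and 1027 in KO control and between 229 and 487 in KO ezetimibe, with Cd163 at 0 in some library of each. C1qc, a complement gene of macrophages, was the 1 called by limma, at −1.77 ± 0.38 (log2, SE, adjusted p = 0.0479). Stem cell markers were higher for 6 of 12 (median −0.0012, 1 called higher by DESeq2) and enterocyte markers for 8 of 12 (median 0.24, 1 called higher and 2 lower by DESeq2), with 0 called by limma in both lists. In WT, 11 of 12 T and NK cell markers were higher with ezetimibe (median 0.44), all 8 Paneth cell markers lower (median −1.02) and 11 of 12 stem cell markers lower (median −0.18), with 0 called by limma or DESeq2. The part of these cells in the diet comparisons was not tested.

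Ccne2, a cyclin of G1/S entry, was the single gene of the 4 lists of other cell cycle genes called by limma in any of the 5 comparisons. In KO it rose with ezetimibe by 1.32 ± 0.20 (log2, SE, limma adjusted p = 0.0135), with 131.3 ± 20.1 normalised counts (SD, n = 3) in KO control and 333 ± 80.8 (SD, n = 4) in KO ezetimibe. It was at 157.3 ± 16.1 in WT control and 163.7 ± 38.1 in WT ezetimibe. For KO against WT on ezetimibe its log2 fold change by limma was 1.02, which was not called. The authors' deposited table lists it as higher in KO there, at 1.03 (log2, adjusted p = 0.000705). DESeq2 on the recovered reads called 1 replication and G1/S gene higher in that comparison (0.357% of all tested genes). It called 1 above 0 in the interaction (0.035%). Ccne2 had the highest limma value of that list in both.

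**Figure D4:**
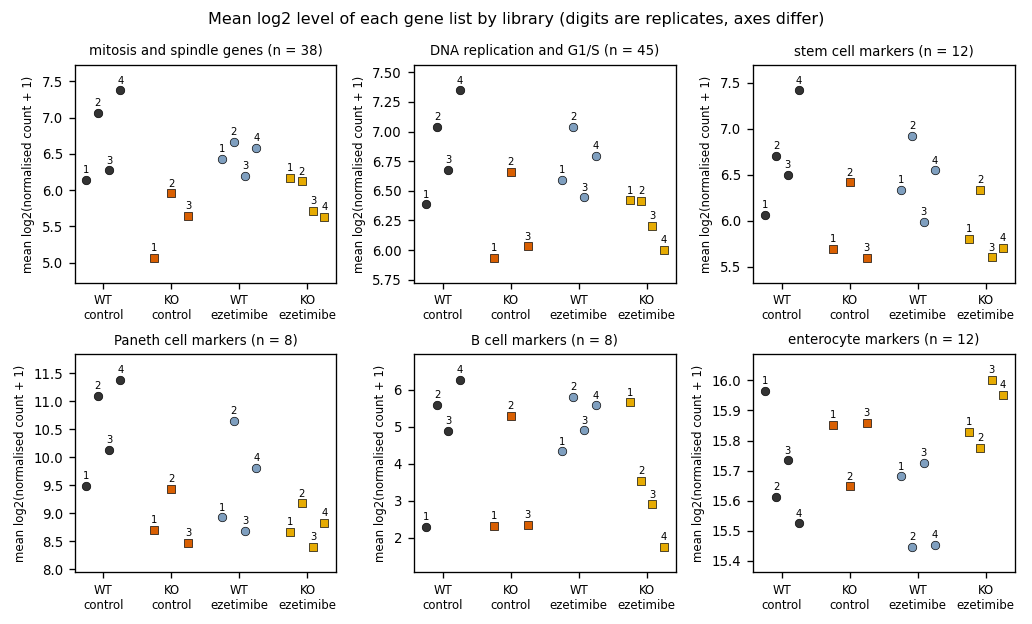
Mean log2(normalised count + 1) of the genes of 6 lists in each library, with the replicate number above each point; the vertical axes differ in range. The mitosis, replication, stem cell, Paneth cell and B cell panels share the order of the WT control libraries, with replicate 4 highest and replicate 1 lowest. The enterocyte panel has the reverse order in WT control and spans only 15.45 to 16.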

How the data were processed

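Per the labels' protocols, TRIzol was used to extract RNA from frozen tissue and the NEBNext Ultra II RNA kit to build libraries. Per the submitters' processing notes, the tools included STAR 2.6.0c, DESeq2 and FastQC, with the mm10 build. Not given in the sources used here are the read counter, the annotation and the strand setting. The largest deposited table holds a signal for 26844 genes in 15 libraries, counts divided by a DESeq2 size factor, per the file headers. Whole multiples of the value of 1 read (within 0.001) made up 100% of the values of every library, so whole reads were recovered. There were 2 deposited tables of the authors' own comparisons, with a mean signal, a log2 fold change and its error, a Wald score, a p-value with its adjusted value, and a fold change, for genes with an adjusted p under 0.05. They were used only where the authors' deposited table is named. Identifiers were matched to GENCODE M21 for 26825 of 26844 genes, which gave exon lengths and overlaps on mm10.

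Groups came from the titles. The labels do not say that each library is a separate animal, so that p-values speak only of the spread among these samples, which may be technical in part. The test was limma 3.58.1 (R 4.3.3) on log2(value + 1), with a trend of variance on mean, over all 15 libraries with a mean per group, for genes with at least 10 in at least 3 libraries. P-values were adjusted by Benjamini-Hochberg over 14299 genes and called under 0.05. On that scale the fold changes of low genes are understated. Count tests on the recovered reads (edgeR 4.0.16 quasi-likelihood, DESeq2 1.42.0, limma-voom) were alternatives, with other pseudocounts (0.5 and 5), no filter, a minimum mean of 50, quantile and TMM scaling, the compared groups alone, robust moderation, the replicate number as a block, and each library left out. On simulated data (14071 genes, the genotype comparison on the control diet), limma recovered 23.9%, 61.2% and 86.4% of genes changed 1.5-, 2- and 4-fold, with 5 false calls. Values in every library are given for the 2 genes with the highest mean in each of 8 roles and for each gene called. The genes and lists were chosen with earlier results of these data known. Values of some single genes of the lists are not reported here. Promoters are from RefSeq (GRCm38.p6), where the last bases of the window lay in an annotated transcript start for 29 of the 31 genes. Figures were drawn with matplotlib 3.10.9.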

Additional observations from a re-analysis of the deposited data

Results flagged for a closer look

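In groups of 4 libraries the highest or lowest value was set against the others by Dixon's criterion at the 95% level, over 114 groups (each gene in the WT control, WT ezetimibe and KO ezetimibe groups), of which chance flags about 1 in 20. There were 4 cases. Ccnb1 stood at 54.7 normalised counts in WT ezetimibe replicate 3, below the other 3 libraries of that group at 78.9 to 83.6. Cdc20 stood at 53.8 in the same library, where the others were at 106.7 to 113.6. Smc4 stood at 812 in WT ezetimibe replicate 2, above the others at 707 to 716, and at 745 in KO ezetimibe replicate 1, above the others at 565 to 588.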

How the results depend on the processing

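The number of mitosis genes called lower in KO on the control diet, 6 by limma, was 2 with a pseudocount of 5, 1 without a filter, 3 of 28 tested with a mean of at least 50, 0 with quantile scaling, 0 with the compared groups alone, 1 with edgeR, 23 with DESeq2 and 1 with limma-voom. It was 0 to 15 with 1 library left out, and 0 without WT control replicate 4 and KO ezetimibe replicate 3 together, an alternative chosen after seeing the data. With the replicate number as a block it was 11. Same-numbered libraries of different groups correlated with r between −0.24 and 0.33 over 21 pairs, 12 of them over 0.1. Differently numbered libraries ran from −0.41 to 0.43. The block raised the calls over all genes from 53 to 231 for this comparison, and from 104 to 1915 for ezetimibe in KO. The labels do not say what the numbers stand for, so a pairing was neither shown nor excluded. In the other 4 comparisons the count was 0 under every alternative run, the block included, and every tested gene of the 38 stayed lower in KO on the control diet under each. Some log2 differences that had not passed changed sign. Plk1 on ezetimibe was 0.076 with quantile scaling, 0.0034 without the 2 libraries named above and between −0.078 and 0.041 with 1 library left out, and Ect2 was 0.073 with quantile scaling and between −0.10 and 0.031 with 1 left out. Without those 2 libraries, ezetimibe in WT gave 0.015 for Incenp, 0.03 for Birc5, 0.15 for Cenpe and 0.050 for Mki67, and the interaction −0.17 for Birc5 and −0.070 for Tacc3. With the block, Kif23 for ezetimibe in KO was −0.041 and Tacc3 for the interaction −0.013. With 1 library left out, ezetimibe in WT ran from −0.49 to 0.015 for Incenp, −0.40 to 0.03 for Birc5, −0.49 to 0.15 for Cenpe, −0.0005 to 0.44 for Tacc3, −0.38 to 0.050 for Mki67 and −0.057 to 0.14 for Smc4. Ezetimibe in KO ran from −0.0078 to 0.77 for Cdk1, −0.11 to 0.52 for Ccna2, −0.11 to 0.55 for Cdc20, −0.28 to 0.032 for Birc5, −0.028 to 0.43 for Cenpe and −0.031 to 0.22 for Kif23. The interaction ran from −0.14 to 0.30 for Birc5, −0.17 to 0.49 for Tacc3 and −0.041 to 0.20 for Smc4. The causes were not tested. Depth was lowest for Ttk, Nuf2 and Ndc80, with 7, 8 and 9 reads in their lowest library.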
